A study of Solanum lycopersicum with 84 samples.

Results

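Transcripts of 6 genes that encode enzymes of starch synthesis were followed in tomato seeds. The 3 large subunits (AgpL1, AgpL2 and AgpL3) and 1 small subunit (AgpS1) of ADP-glucose pyrophosphorylase (AGPase), granule-bound starch synthase (GBSS) and starch branching enzyme (SBE) make up the set. They were chosen by locus identifier, in that order, and not by a cut on their values, with earlier results of these data known. Each locus matched 1 of the 33976 gene models of the count table, and all 6 were among the 24676 genes that passed the filter on low counts. The identifiers are Solyc01g109790.3.1 (AgpL1, chromosome 1), Solyc07g019440.3.1 (AgpL2, chromosome 7), Solyc01g079790.4.1 (AgpL3, chromosome 1), Solyc07g056140.3.1 (AgpS1, chromosome 7), Solyc08g083320.4.1 (GBSS, chromosome 8) and Solyc09g009190.4.1 (SBE, chromosome 9), with the chromosome read from the identifier. The count table gives identifiers without names. Of the 6 names, AgpL3 also stands in the annotation that accompanies the study, and the others come from the list by which the genes were chosen.

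AGPase makes ADP-glucose, the glucosyl donor of starch, from glucose-1-phosphate and ATP, and it is the main point of control of the pathway. In plants it is a heterotetramer in which small subunits carry most of the catalytic activity and large subunits set the response to metabolites, so that the large subunit partner can change between tissues. GBSS then elongates amylose inside the granule, and SBE introduces the branch points of amylopectin. Tomato seeds store mainly oil and protein in the embryo and endosperm, and starch in such seeds is largely a transient reserve of the filling phase.

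The samples came from Solanum lycopersicum cultivar Moneymaker, a single genotype with no treatment, grown in a greenhouse, and the comparisons were between seed tissues and ages. Whole seeds were taken at 15, 21 and 28 days after flowering (DAF), and seed coat, embryo and endosperm were dissected by hand at 35, 42 and 49 DAF. Embryo and endosperm were also followed through the fruit stages mature green (MG, 56 DAF), breaker (B, 63 DAF), pale orange (PO, 67 DAF), orange (O, 70 DAF), dark orange (DO, 72 DAF), red (R, 76 DAF), red plus 7 days (R7, 83 DAF) and red plus 14 days (R14, 90 DAF). Each of the 28 groups of tissue and stage held 3 libraries, 84 in all, and each library was made from RNA of a pool of freshly harvested seeds. The extraction kit was run with another sample-type setting for embryo, endosperm and seed coat, so tissue and extraction setting cannot be told apart in any comparison between tissues.

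Library totals lay between 16908779 and 22734330 estimated counts, with a median of 21199645. Levels are given as CPM, the counts of a gene per 1000000 counts of the library, as replicates 1, 2 and 3 in that order or as mean ± SD with n = 3, and 3 counts correspond to at most 0.177 CPM. Fold changes come from edgeR with TMM scaling, and a gene was called at an adjusted p under 0.05 together with an absolute log2 fold change above 1. The 2 scales differ where a few genes fill a library. The 10 most abundant genes took 52.9% of the counts in embryos at 35 DAF, 38.5% at 49 DAF and 10.1% at R14. On library totals the log2 change of the median gene from 49 DAF to R14 in the embryo was 0.90 above that on TMM. Of the tissue markers, Solyc03g095973.1.1 and Solyc03g095977.1.1, ABI4 paralogs and embryo genes, had medians of 21.6 and 76.1 CPM over the embryo libraries and 0.211 and 0.658 CPM over the endosperm libraries. The seed coat marker, a pectin lyase gene, reached 17.8 to 56.2 CPM in the seed coat at 49 DAF and at most 1.03 CPM in embryo and endosperm. In the seed coat it held 0 to 0.0450 CPM at 35 DAF and 6.49, 0.554 and 0.0459 CPM at 42 DAF. At 35 DAF and in replicates 2 and 3 of 42 DAF the label rests on the dissection alone. These markers were picked on the same samples and are no independent check, and no endosperm marker was used here. With bulk tissue, fewer cells of a type and less RNA per cell cannot be told apart in any of the results.

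By group mean, AgpL1, AgpL3 and AgpS1 were highest in whole seeds at 15 DAF, AgpL2 and SBE in whole seeds at 21 DAF, and GBSS in the endosperm at R14. From 35 to 49 DAF, 4 of the 6 genes fell and none rose in the embryo, where 40.8% of all genes tested were called and 25.4% fell. In the endosperm over the same ages 4 fell and GBSS rose, against 42.7% of all genes called, 23.2% falling and 19.6% rising. From 49 DAF to R14, 4 genes rose in the embryo (28.0% of all genes called, 16.1% rising) and 2 in the endosperm (30.6% called, 15.4% rising), and none of the 6 fell. On library totals without TMM all 6 were called as rising in the embryo over this span, with GBSS at 1.46 and AgpL2 at 1.24, and 4 were called in the endosperm. The plot of levels by seed age shows the trough at 49 DAF and MG that AgpL1, AgpS1 and, at 49 DAF, SBE had in common. With 6 genes and backgrounds of this size, these counts describe the members and say nothing particular of starch genes as a class.

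**Figure D1:**
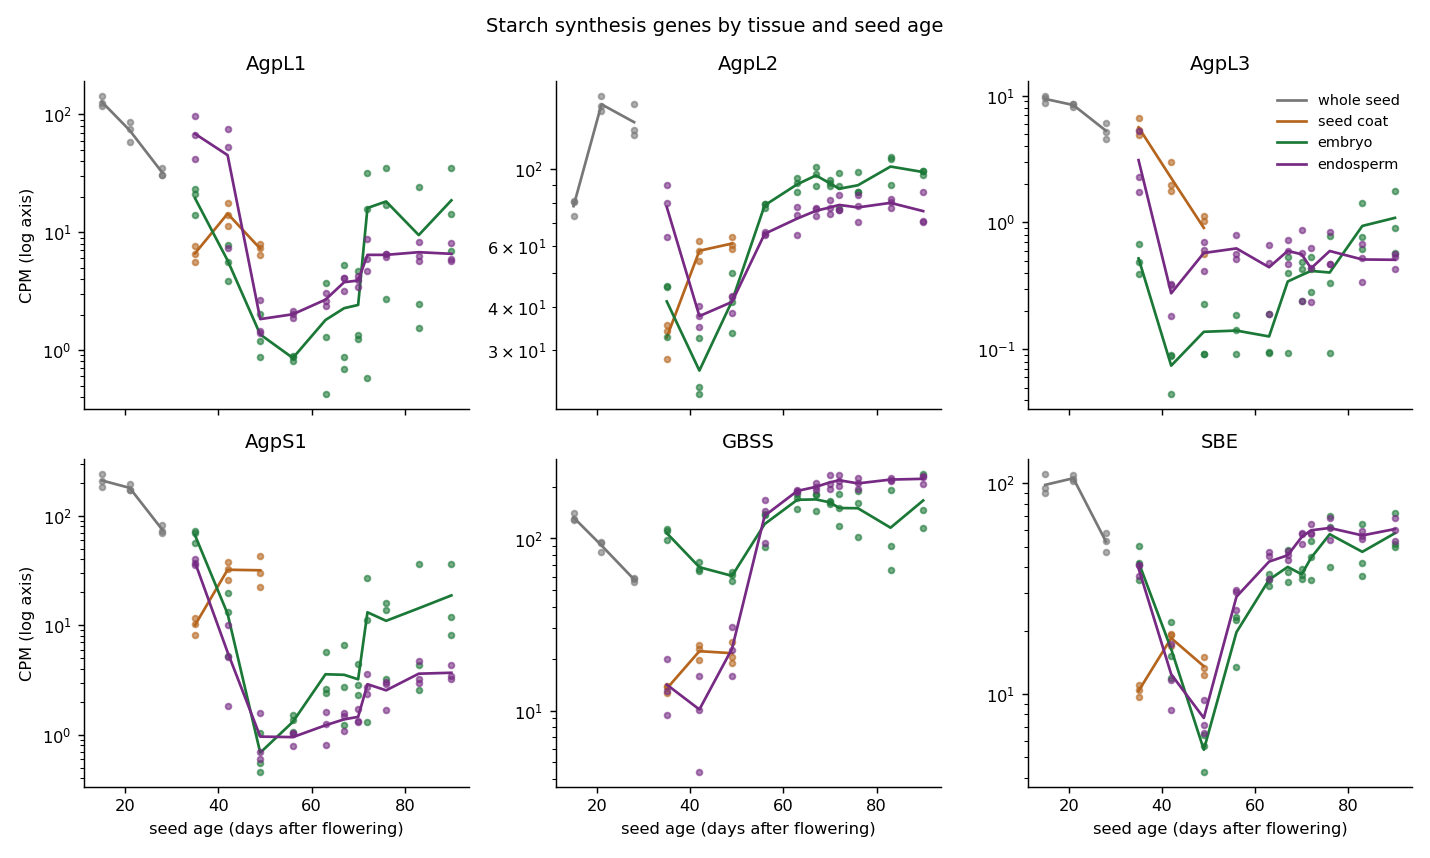
Level of each starch synthesis gene (CPM, log axis) against seed age in days after flowering, with points for single libraries and lines for the means of 3 libraries in whole seed (grey), seed coat (brown), embryo (green) and endosperm (purple). AgpL1 and AgpS1 fall by 49 DAF to means of 1.36 and 0.686 CPM in the embryo, and GBSS climbs in the endosperm from a mean of 10.1 at 42 DAF to one of 222 CPM at R14.

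AgpL1, a regulatory large subunit, was a gene of the young seed. In whole seeds at 15 DAF its libraries held 117, 124 and 144 CPM, the highest of the 28 groups, and no library of another group reached them. At 21 DAF they held 58.5, 86.3 and 75.0 CPM and at 28 DAF 34.8, 30.6 and 30.6 CPM, so the 3 ages did not overlap. The fall from 15 to 28 DAF was 3.10-fold (log2 fold change -1.63, SE 0.67, edgeR, Benjamini-Hochberg adjusted p = 0.0448), in a comparison in which 23.0% of all genes and 2 of the starch genes were called. That call lay close to the threshold and was lost in DESeq2, without the filter on low counts and without any one replicate number, and over all alternatives its Benjamini-Hochberg adjusted p in edgeR or DESeq2 ran from 2.43e-06 to 0.232. The main fit shared 1 estimate of the spread over all 84 libraries. In the embryo groups from B to R14 the SD of AgpL1 was 77.5% to 137% of the mean. The part of those groups in the SE given here was not tested.

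Within both filial tissues AgpL1 fell from 35 to 49 DAF. The endosperm at 35 DAF, with a mean of 68.5 CPM, lay above whole seeds at 28 DAF, with 32.0 CPM. Whole seeds and dissected tissues are therefore not read as 1 series. In the endosperm the libraries held 96.9, 67.2 and 41.5 CPM at 35 DAF, 7.31, 52.8 and 75.3 CPM at 42 DAF and 2.65, 1.40 and 1.44 CPM at 49 DAF. At 42 DAF replicate 1 lay below every library of 35 DAF and above every library of 49 DAF. The other libraries of 42 DAF lay within the range of 35 DAF, and at 49 DAF all 3 were low. The change from 35 to 49 DAF was 30.2-fold (log2 fold change -4.92, SE 0.81, edgeR, Benjamini-Hochberg adjusted p = 3.99e-07), and the step from 42 to 49 DAF carried it, with a log2 fold change of -4.62 (SE 0.80, edgeR, Benjamini-Hochberg adjusted p = 4.73e-06). In the embryo the values were 14.1, 21.2 and 23.1 CPM at 35 DAF, 3.86, 5.61 and 7.82 CPM at 42 DAF and 2.00, 1.19 and 0.870 CPM at 49 DAF, with no overlap between consecutive ages. The embryo fell 12.9-fold (log2 fold change -3.69, SE 0.79, edgeR, Benjamini-Hochberg adjusted p = 5.67e-05). Its step from 42 to 49 DAF was also called, at -2.32 (SE 0.79, edgeR, Benjamini-Hochberg adjusted p = 0.0142), but without replicate 2 it was -2.17 (edgeR, Benjamini-Hochberg adjusted p = 0.161, with 0.00405 to 0.161 over all alternatives), and the call was lost as well without replicate 3, where the log2 fold change was -1.75, and in the fit of the embryo alone, where it was -2.28. A test of the difference between the 2 tissues in the change from 35 to 49 DAF did not call AgpL1.

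The lowest AgpL1 level of all groups was in the embryo at MG, with 0.872, 0.886 and 0.811 CPM, and the mean of whole seeds at 15 DAF was 149.8 times higher. During ripening the endosperm means ran from 2.01 ± 0.144 CPM at MG to 6.77 ± 1.34 CPM at R7. The embryo mean climbed to 18.7 ± 14.5 CPM at R14, 7.06-fold above 49 DAF (log2 fold change 2.82, SE 0.78, edgeR, Benjamini-Hochberg adjusted p = 0.00197), and the libraries at R14 lay far apart at 34.8, 14.2 and 6.95 CPM. All 3 were above the 3 libraries of 49 DAF. The endosperm change over the same span was 1.39 on the log2 scale and not called, and the difference between the tissues was not called either.

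AgpL2, the second large subunit, behaved as the steady member of the family. Its group means spanned 26.1 to 154 CPM, a 5.90-fold range, against 149.8-fold for AgpL1 and 126-fold for AgpL3. In whole seeds it rose while AgpL1 fell, from 73.4, 80.3 and 80.7 CPM at 15 DAF to 163, 147 and 152 CPM at 21 DAF, with no overlap. The log2 fold change was 1.12 (SE 0.12, edgeR, Benjamini-Hochberg adjusted p = 1.58e-10) over this step and 1.18 (SE 0.12, edgeR, Benjamini-Hochberg adjusted p = 7.30e-12) from 15 to 28 DAF. On library totals the rise to 28 DAF was 0.81 and that to 21 DAF 0.98, both under the fold threshold. These were the only 2 of the 49 comparisons in which AgpL2 was called.

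In the dissected tissues the CPM of AgpL2 was lower up to 49 DAF than during ripening in the embryo, although with TMM scaling no comparison between stages of embryo or endosperm was called. The embryo means were 41.4, 26.1 and 41.5 CPM at 35, 42 and 49 DAF and 78.6 CPM at MG, and the embryo held 77.0 to 109 CPM in every library from B to R14. The endosperm means were 77.8, 37.6, 41.3 and 65.0 CPM at 35, 42 and 49 DAF and MG, and its libraries held 64.6 to 85.8 CPM in the same stages. Ranked by mean, 24 of the 27 neighbouring pairs of groups overlapped in their libraries, and the breaks lay below whole seeds at 28 DAF, below the endosperm at MG and below the seed coat at 42 DAF.

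AgpL3, the third large subunit, had the lowest counts of the set and was most abundant in young whole seeds and in the young seed coat. Whole seeds held 8.75, 9.94 and 9.53 CPM at 15 DAF and 6.10, 4.58 and 5.18 CPM at 28 DAF. The seed coat held 5.35, 6.63 and 4.89 CPM at 35 DAF, 1.99, 1.76 and 2.98 CPM at 42 DAF and 1.13, 1.02 and 0.560 CPM at 49 DAF, an ordered fall with no overlap between ages. From 35 to 49 DAF it was 9.05-fold (log2 fold change -3.18, SE 0.42, edgeR, Benjamini-Hochberg adjusted p = 6.14e-09), and AgpL3 was the only starch gene called in this comparison, in which 25.0% of all genes were. Both steps were called, at -1.98 (SE 0.39, edgeR, Benjamini-Hochberg adjusted p = 5.88e-05) and -1.20 (SE 0.41, edgeR, Benjamini-Hochberg adjusted p = 0.0322). Without replicate 2 neither step was, at -1.66 and -1.51, and without replicate 3 the second was -0.64. The steps of whole seed and seed coat together gave 3 calls of 24, against 11.3% of all tests, and 1 of 24 without replicate 2.

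Embryo and endosperm had little AgpL3. The endosperm fell from 1.74, 2.27 and 5.28 CPM at 35 DAF to 0.326, 0.321 and 0.183 CPM at 42 DAF (log2 fold change -3.09, SE 0.46, edgeR, Benjamini-Hochberg adjusted p = 1.09e-07). It stayed at or below 0.866 CPM in every later library. In the embryo the 3 libraries held 9, 11 and 15 counts at 35 DAF and 2, 1 and 2 counts at 42 DAF. Ratios of counts are taken on library totals without TMM factors. The ratio of 35 over 42 DAF was 6.99 (2.73 to 22.9) with its 95% exact counting interval. For 35 over 49 DAF it was 3.79 (1.78 to 8.96). The fitted log2 fold changes were -2.37 (SE 0.62, edgeR, Benjamini-Hochberg adjusted p = 0.00178) and -1.76 (SE 0.56, edgeR, Benjamini-Hochberg adjusted p = 0.00513). Late in ripening the embryo rose again, to 38, 19 and 12 counts at R14, a ratio over 49 DAF of 7.94 (3.95 to 18.1) and a log2 fold change of 2.02 (SE 0.53, edgeR, Benjamini-Hochberg adjusted p = 0.00119). These embryo calls depended on the replicates kept: the fall to 42 DAF was lost without replicate 2 (log2 fold change -2.11), the fall to 49 DAF without replicate 3 (-1.23) and the rise to R14 without replicate 1 (1.34).

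The make-up of the large subunit transcripts differed between ages. As a share of the summed counts of AgpL1, AgpL2 and AgpL3, with no correction for transcript length, AgpL1 took 59.3% ± 1.84 in whole seeds at 15 DAF and 18.4% ± 0.636 at 28 DAF (mean and SD in percent, n = 3). In the embryo its share went from 31.5% ± 1.75 at 35 DAF to 3.38% ± 2.03 at 49 DAF and 1.08% ± 0.0583 at MG. It was higher again late in ripening, at 14.9% ± 14.3 at DO, 16.0% ± 13.1 at R and 15.1% ± 10.1 at R14, with replicates far apart. In the endosperm it was 45.0% ± 14.7 at 35 DAF, 4.24% ± 1.83 at 49 DAF and 8.02% ± 2.04 at R14. AgpL2 filled almost all of the remainder in these tissues. AgpL3 reached more than 4.37% in a single group, the seed coat at 35 DAF, with 12.5% ± 1.21. Lengths are not used here, so the shares can be set side by side between groups and not between genes.

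AgpS1, the catalytic small subunit, changed more than any other member, with group means from 0.686 to 210.4 CPM, a 307-fold range. Whole seeds held 182, 208 and 241 CPM at 15 DAF, 171, 196 and 173 CPM at 21 DAF and 81.6, 70.0 and 71.9 CPM at 28 DAF, so the first 2 ages overlapped and the last lay below both. The change from 15 to 28 DAF, a log2 fold change of -1.13 (SE 0.54), did not pass the call rule. Its Benjamini-Hochberg adjusted p in edgeR was 0.0904, and it ran from 5.56e-06 to 0.332 over all alternatives in edgeR or DESeq2. The spread was again estimated over all groups. In the embryo from B to R14 the SD of AgpS1 was 34.9% to 131% of the mean. In the embryo the libraries held 56.9, 70.1 and 72.5 CPM at 35 DAF, 5.20, 13.1 and 19.9 CPM at 42 DAF and 1.05, 0.551 and 0.458 CPM at 49 DAF. The 3 ages did not overlap, and from 35 to 49 DAF the transcript fell 88.1-fold (log2 fold change -6.46, SE 0.75, edgeR, Benjamini-Hochberg adjusted p = 4.32e-11), the steepest change of any starch gene between 2 ages. Most of it fell in the step from 42 to 49 DAF, at -4.44 (SE 0.72, edgeR, Benjamini-Hochberg adjusted p = 9.55e-07).

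The step from 35 to 42 DAF in the embryo was -2.02 (SE 0.57, edgeR, Benjamini-Hochberg adjusted p = 0.00357), a call lost without replicate 2 (log2 fold change -1.99) and in the fit of the embryo alone (-1.98). The endosperm took the same course, from 35.3, 37.1 and 40.5 CPM at 35 DAF through 1.82, 5.13 and 10.1 CPM at 42 DAF to 0.605, 0.701 and 1.58 CPM at 49 DAF. Its fall was 31.1-fold (log2 fold change -4.96, SE 0.70, edgeR, Benjamini-Hochberg adjusted p = 1.10e-08), with -2.39 (SE 0.59, edgeR, Benjamini-Hochberg adjusted p = 0.000548) in the first step and -2.56 (SE 0.69, edgeR, Benjamini-Hochberg adjusted p = 0.00211) in the second, which was lost without replicate 2 (log2 fold change -2.42). The endosperm stayed between 0.795 and 4.67 CPM in its 24 libraries from MG to R14. The embryo rose to 36.1, 12.0 and 8.09 CPM at R14, 14.0-fold above 49 DAF (log2 fold change 3.81, SE 0.71, edgeR, Benjamini-Hochberg adjusted p = 7.74e-06). The difference between the tissues in this change was not called.

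GBSS, which elongates amylose, was the member whose course differed between embryo and endosperm over both spans tested. The embryo held 97.6, 111 and 114 CPM at 35 DAF and the endosperm 9.41, 13.0 and 20.0 CPM, 10.9-fold apart (log2 fold change 3.44, SE 0.26, edgeR, Benjamini-Hochberg adjusted p = 7.48e-18). At 42 DAF the values were 64.9, 66.3 and 73.0 CPM and 10.1, 4.40 and 15.9 CPM, a log2 fold change of embryo over endosperm of 3.28 (SE 0.26, edgeR, Benjamini-Hochberg adjusted p = 8.91e-17). At 49 DAF the difference had shrunk to 1.69 (SE 0.24, edgeR, Benjamini-Hochberg adjusted p = 2.04e-08). At none of these ages did the tissues overlap.

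The endosperm then caught up. Its GBSS libraries went from 15.8, 22.4 and 30.4 CPM at 49 DAF to 93.9, 168 and 145 CPM at MG and 187, 188 and 192 CPM at B, and from B on no endosperm library was below 187 CPM. The step from 49 DAF to MG was 4.97-fold (log2 fold change 2.31, SE 0.24, edgeR, Benjamini-Hochberg adjusted p = 3.06e-11), and the change from 49 DAF to R14 7.19-fold (log2 fold change 2.85, SE 0.25, edgeR, Benjamini-Hochberg adjusted p = 5.96e-15). An earlier rise from 42 to 49 DAF was called at 1.17 (SE 0.24, edgeR, Benjamini-Hochberg adjusted p = 9.34e-05) and was lost without replicate 2 (log2 fold change 0.84). The change from 35 to 49 DAF, 1.04 (SE 0.24, edgeR, Benjamini-Hochberg adjusted p = 0.000157), stood at the fold threshold. It was 0.999 in DESeq2, just short of a call, and 0.69 on library totals. The 7 groups with the highest GBSS means were the endosperms from B to R14, at 189 to 222 CPM, and each overlapped with its neighbour in rank.

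In the embryo the size of the GBSS change depended on the scaling. Its mean was 107 ± 8.61 CPM at 35 DAF, stood at 60.6 ± 3.88 CPM by 49 DAF and was 168 ± 17.0 CPM at B, and no comparison between embryo stages was called with TMM scaling. From 49 DAF to R14 the log2 fold change was 0.53 with TMM scaling and 1.46 on library totals, where it was called (Benjamini-Hochberg adjusted p = 3.30e-06 in edgeR, with 3.30e-06 to 0.545 over all alternatives). The change differed between the tissues when the difference itself was tested, with an interaction of -1.75 (SE 0.34, edgeR, Benjamini-Hochberg adjusted p = 2.28e-05) for embryo minus endosperm from 35 to 49 DAF and -2.32 (SE 0.33, edgeR, Benjamini-Hochberg adjusted p = 1.93e-07) from 49 DAF to R14. Interactions of this kind were called for 24.0% and 16.2% of all genes, and for 1 and 2 of the starch genes. From DO on the embryo libraries spread widely, with 65.4, 90.8 and 190.4 CPM at R7 and 237, 147 and 115 CPM at R14.

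SBE, which branches amylopectin, dipped and recovered in both filial tissues. Whole seeds held 89.5, 94.4 and 111 CPM at 15 DAF, 102, 109.6 and 105 CPM at 21 DAF and 58.0, 47.4 and 53.2 CPM at 28 DAF, and no comparison among them was called. The embryo went from 34.7, 41.8 and 50.1 CPM at 35 DAF to 5.65, 4.27 and 6.41 CPM at 49 DAF and 72.4, 51.5 and 49.8 CPM at R14. The fall was 7.11-fold (log2 fold change -2.83, SE 0.19, edgeR, Benjamini-Hochberg adjusted p = 1.88e-19) and the recovery 5.65-fold (log2 fold change 2.50, SE 0.19, edgeR, Benjamini-Hochberg adjusted p = 2.09e-17). The lowest 3 libraries of the embryo series were those of 49 DAF.

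In the endosperm SBE held 36.4, 41.1 and 40.8 CPM at 35 DAF, 6.56, 7.15 and 9.38 CPM at 49 DAF and 68.6, 59.8 and 53.4 CPM at R14. The fall was 4.09-fold (log2 fold change -2.03, SE 0.18, edgeR, Benjamini-Hochberg adjusted p = 9.77e-15) and the rise 5.80-fold (log2 fold change 2.54, SE 0.19, edgeR, Benjamini-Hochberg adjusted p = 5.27e-18). Step by step, SBE fell at -1.34 (SE 0.18, edgeR, Benjamini-Hochberg adjusted p = 5.10e-09) from 35 to 42 DAF in the endosperm and at -1.84 (SE 0.19, edgeR, Benjamini-Hochberg adjusted p = 8.01e-12) from 42 to 49 DAF in the embryo. SBE also fell in the other step of each tissue, under the fold threshold. The log2 fold changes of SBE were -0.990 (edgeR, Benjamini-Hochberg adjusted p = 6.68e-06) in the embryo and -0.693 (edgeR, Benjamini-Hochberg adjusted p = 0.00163) in the endosperm. It rose from 49 DAF to MG in both, at 1.65 (SE 0.18, edgeR, Benjamini-Hochberg adjusted p = 8.94e-11) for the endosperm, and 1.28 (SE 0.18, edgeR, Benjamini-Hochberg adjusted p = 3.75e-07) for the embryo. SBE was not called between embryo and endosperm at any of the 11 stages, and neither interaction was called for it.

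Counted over the steps between consecutive stages, 2 of 60 tests of a starch gene rose and 5 fell in the embryo, where 5.15% of all tests were called, 2.11% rising and 3.05% falling. In the endosperm 3 of 60 rose and 5 fell, against 6.32% of all tests, 2.92% rising and 3.40% falling. All 8 calls in the endosperm and 6 of the 7 in the embryo lay between 35 DAF and MG. The remaining one was the rise of AgpL1 from O to DO in the embryo, 2.58 (SE 0.75, edgeR, Benjamini-Hochberg adjusted p = 0.0399), from 1.24, 4.66 and 1.35 CPM to 15.8, 31.8 and 0.581 CPM, groups that overlap, in a step in which 2.61% of all genes rose. It was lost without replicate 1 (log2 fold change 2.27), without replicate 2 (2.49) and in the fit of the embryo alone (2.55). The embryo count of 7 became 3 without replicate 2 and 12 without replicate 3.

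Between embryo and endosperm at the same stage, 15 of 66 tests of a starch gene were called, 9 higher and 6 lower in the embryo, against 31.3% of all tests, 14.0% higher and 17.3% lower. The higher ones were GBSS at 35, 42 and 49 DAF and AgpS1 at 35 and 42 DAF and from DO to R14. The lower ones were AgpL3 at 35 and 49 DAF, MG and B, AgpL1 at 42 DAF and GBSS at R7. AgpL2 and SBE were called at no stage. Without replicate 2 the count was 7. The plot of embryo against endosperm shows that GBSS went from far above in the embryo to below it, with -0.20 at MG, -0.69 at DO, -1.05 at R7, where it was called, and -0.63 at R14.

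**Figure D2:**
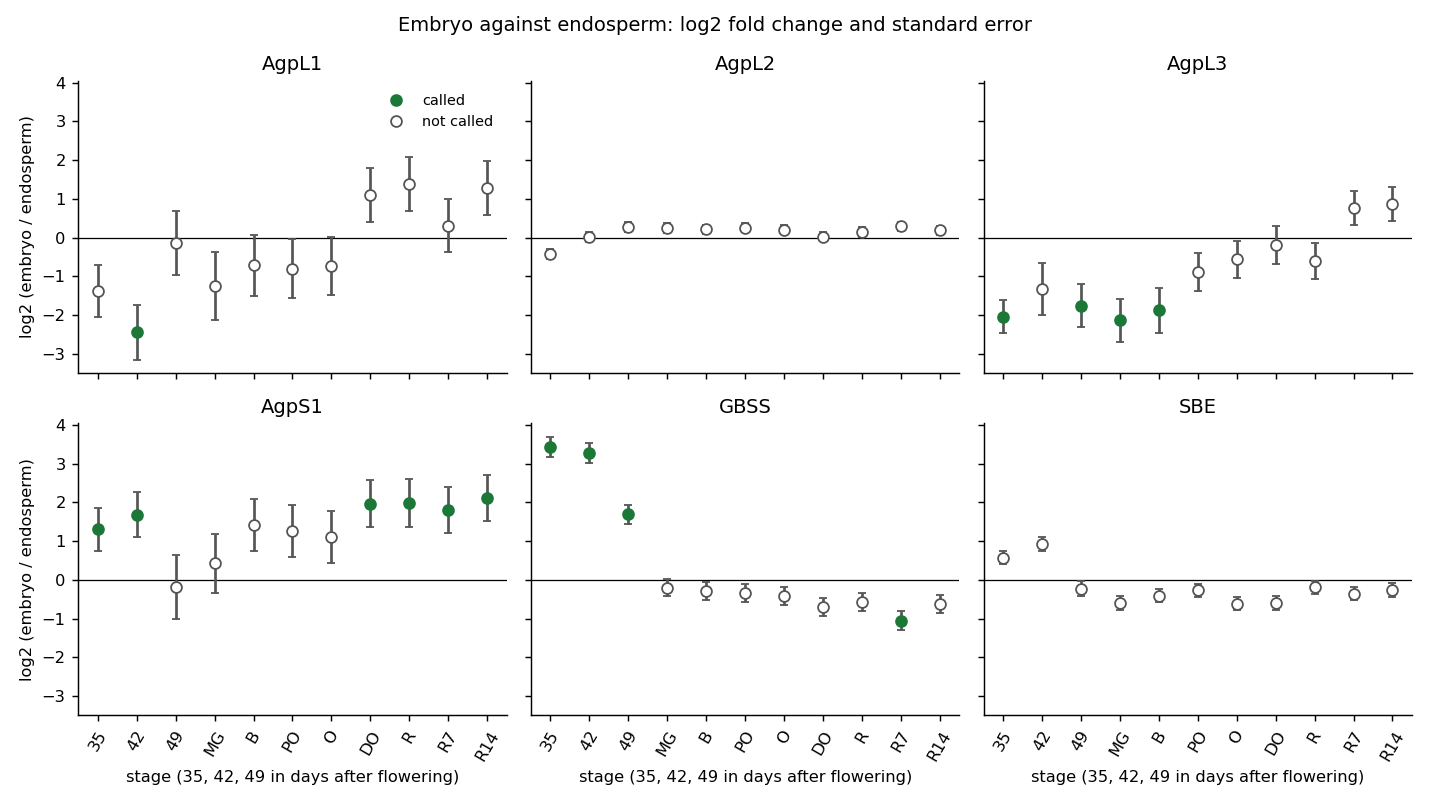
Log2 fold change of embryo over endosperm for each starch synthesis gene at the 11 shared stages, with bars for the standard error of the fit and filled points for calls. GBSS starts at 3.44 at 35 DAF and is below 0 from MG on, AgpS1 lies between 1.81 and 2.12 from DO to R14, and AgpL2 stays within -0.42 and 0.29.

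For AgpL1 at 42 DAF the embryo held 3.86, 5.61 and 7.82 CPM and the endosperm 7.31, 52.8 and 75.3 CPM (log2 fold change -2.45, SE 0.71, edgeR, Benjamini-Hochberg adjusted p = 0.00268). Endosperm replicate 1 lay within the embryo range, and without replicate 2 the call was lost, at -2.34. AgpL3 was carried by few counts in the embryo. On library totals the ratio of embryo over endosperm was 0.168 (0.114 to 0.242) at 35 DAF, 0.239 (0.101 to 0.504) at 49 DAF and 0.225 (0.0959 to 0.471) at MG. The ranges are 95% exact counting intervals. The fitted log2 fold changes were -2.05 (SE 0.43, edgeR, Benjamini-Hochberg adjusted p = 3.47e-05), -1.76 (SE 0.55, edgeR, Benjamini-Hochberg adjusted p = 0.00564) and -2.14 (SE 0.55, edgeR, Benjamini-Hochberg adjusted p = 0.000873). At B the ratio was 0.285 (0.112 to 0.642), with a log2 fold change of -1.88 (SE 0.57, edgeR, Benjamini-Hochberg adjusted p = 0.00535) that was lost without replicate 2 (-1.37). By R14 the embryo mean was the higher one, 1.09 ± 0.626 CPM against 0.508 ± 0.0694 CPM, and the interaction from 49 DAF to R14 was 2.63 (SE 0.71, edgeR, Benjamini-Hochberg adjusted p = 0.00350). Without replicate 1 the interaction was 1.64 (edgeR, Benjamini-Hochberg adjusted p = 0.124, with 0.000563 to 0.124 over all alternatives).

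AgpS1 was higher in the embryo at 35 DAF by 1.31 (SE 0.55, edgeR, Benjamini-Hochberg adjusted p = 0.0345) and at 42 DAF by 1.68 (SE 0.58, edgeR, Benjamini-Hochberg adjusted p = 0.0119), 2 calls that library totals or a left-out replicate removed. At 35 DAF the call was also lost in DESeq2 (log2 fold change 1.26) and was 0.82 on library totals, and at 42 DAF it was 1.16 on library totals. Without replicate 2 it was 1.23 at 35 DAF and 1.54 at 42 DAF, and without replicate 1 1.29 at 35 DAF. At 35 DAF the libraries themselves did not overlap, with 56.9, 70.1 and 72.5 CPM in the embryo and 35.3, 37.1 and 40.5 CPM in the endosperm. In the late stages the log2 fold change was 1.97 (SE 0.61, edgeR, Benjamini-Hochberg adjusted p = 0.00527) at DO, 1.98 (SE 0.61, edgeR, Benjamini-Hochberg adjusted p = 0.00560) at R, 1.81 (SE 0.60, edgeR, Benjamini-Hochberg adjusted p = 0.00852) at R7 and 2.12 (SE 0.60, edgeR, Benjamini-Hochberg adjusted p = 0.00216) at R14. None of the 4 held with every replicate number left out in turn. Without replicate 2 the values were 1.11 at DO and 1.80 at R, without replicate 3 it was 0.16 at R7, without replicate 2 at the same stage 2.12, and without replicate 1 1.40 at R14, none of them called. At R14 all 3 embryo libraries still lay above all 3 endosperm libraries, of 4.35, 3.23 and 3.47 CPM. GBSS at R7, -1.05 (SE 0.23, edgeR, Benjamini-Hochberg adjusted p = 0.000126), fell under the fold threshold without replicate 1 (-0.78), without replicate 2 (-0.94) and on library totals (-0.93).

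The replicates of the late embryo disagreed on AgpL1 and AgpS1, and they did so together for several genes. From B to R14 the highest embryo library held 3.76 to 54.7 times the AgpL1 level of the lowest at its stage, against 1.07 to 1.88 times in the endosperm. At DO the embryo libraries held 15.8, 31.8 and 0.581 CPM of AgpL1 and 11.2, 26.9 and 1.31 CPM of AgpS1. At R they held 2.69, 34.9 and 17.2 CPM of AgpL1 and 3.23, 15.9 and 13.8 CPM of AgpS1. At R7 they held 1.53, 2.44 and 24.4 CPM of AgpL1 and 2.58, 4.35 and 36.0 CPM of AgpS1. The library with the most AgpL1 had the most AgpS1 at 7 of the 8 stages from MG to R14 (all but MG), the most SBE at all 8 and the most GBSS at 5. AgpL2 went the other way, and its highest library was at none of the 8 stages that of AgpL1. In the endosperm, the highest library of AgpL1 was also that of AgpS1 at 4 of 8 stages and that of SBE at 2.

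Among the other 24675 genes tested, 9.36% had their highest library in common with AgpL1 at 7 or 8 of the 8 embryo stages and 7.49% at none, so neither pattern was confined to starch genes. The plot of single late libraries shows AgpL1 and AgpS1 rising together in the embryo over a wide range. Of the 24 embryo libraries, 10 held more AgpS1 and 7 more AgpL1 than any of the 24 endosperm libraries of these stages. In the 7 libraries with the most AgpL1 at their stage from B to R14, the TMM factor was 1.07 to 1.29, against 1.03 to 1.17 in the other 14, and at 6 of the 8 stages from MG the library with the most AgpL1 also had the highest factor. The summed level of the 2 embryo markers was 91.4 to 146 CPM in the 7 libraries and 88.0 to 139.7 CPM in the 14, and the seed coat marker was at most 0.0974 CPM in all 21. These ranges pool stages. Within a stage, the library with the most AgpL1 had the highest embryo marker sum at B, PO, DO and R7, and not at O, R and R14. At DO the sums were 125, 145 and 95.9 CPM. The part of scaling or of tissue composition in the spread was not tested.

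**Figure D3:**
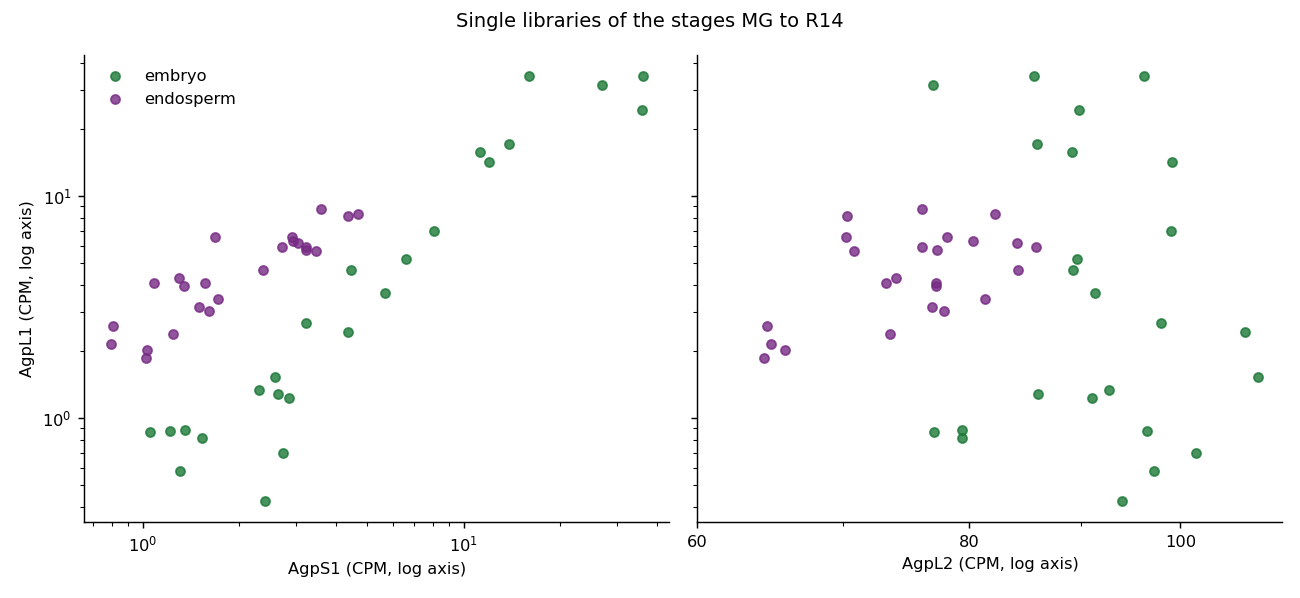
AgpL1 against AgpS1 (left) and against AgpL2 (right) in single libraries of the stages MG to R14, in CPM on log axes, with 24 embryo libraries in green and 24 endosperm libraries in purple. Embryo libraries run from 0.425 to 34.9 CPM of AgpL1 along a diagonal with AgpS1, while endosperm libraries stay between 1.86 and 8.75 CPM.

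In the seed coat, the maternal tissue around embryo and endosperm, AgpL3 was higher and GBSS lower than in the embryo at each age compared. Against the embryo at 35, 42 and 49 DAF, 11 of 18 tests were called, 4 higher and 7 lower in the seed coat, where 49.5% of all tests were called, 27.5% higher and 22.1% lower. Against the endosperm it was 8 of 18, 4 higher and 4 lower, against 47.1% of all tests, 25.7% higher and 21.5% lower. Both counts lie near the share over all genes, and AgpL2 was called in neither comparison at any age. Without replicate 2 the count against the endosperm was 5. AgpS1 changed sides between the ages. The seed coat held 11.7, 10.3 and 8.09 CPM at 35 DAF and 22.6, 42.7 and 30.1 CPM at 49 DAF. Its log2 fold change over the embryo was -2.89 (SE 0.59, edgeR, Benjamini-Hochberg adjusted p = 1.82e-05) at 35 DAF and 4.70 (SE 0.72, edgeR, Benjamini-Hochberg adjusted p = 4.38e-08) at 49 DAF, and over the endosperm at 49 DAF 4.51 (SE 0.69, edgeR, Benjamini-Hochberg adjusted p = 6.07e-08). AgpL1 held 6.57, 7.70 and 5.55 CPM in the seed coat at 35 DAF, with log2 fold changes of -3.08 (SE 0.72, edgeR, Benjamini-Hochberg adjusted p = 0.000186) over the endosperm and -1.70 (SE 0.69, edgeR, Benjamini-Hochberg adjusted p = 0.0275) over the embryo. The difference from the embryo was lost without replicate 2 (-1.68), without replicate 3 (-1.44) and on library totals (-1.56). These comparisons share their seed coat libraries with each other and their embryo and endosperm libraries with those between stages.

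GBSS was lower in the seed coat than in the embryo at all 3 ages, with seed coat means of 13.4 to 22.1 CPM. The log2 fold changes were -3.17 (SE 0.25, edgeR, Benjamini-Hochberg adjusted p = 5.60e-17) at 35 DAF, -2.84 at 42 DAF and -2.32 at 49 DAF, both of the latter called. GBSS was not called between seed coat and endosperm. AgpL3 was the reverse, 9.69-fold higher in the seed coat than in the embryo at 35 DAF (log2 fold change 3.28, SE 0.43, edgeR, Benjamini-Hochberg adjusted p = 1.53e-09). Against the endosperm AgpL3 was also higher, at 1.23 (SE 0.38, edgeR, Benjamini-Hochberg adjusted p = 0.00429) at 35 DAF and 2.34 (SE 0.46, edgeR, Benjamini-Hochberg adjusted p = 1.29e-05) at 42 DAF, the first of which was lost without replicate 2 (0.96) and on library totals (0.86). By summed counts on library totals, the ratio of seed coat over embryo was 30.2 (12.7 to 94.5) at 42 DAF and 6.59 (3.24 to 15.1) at 49 DAF. The ranges are 95% exact counting intervals. With TMM scaling the mean levels lay closer together. They were 1.85 CPM in the seed coat and 0.139 CPM in the embryo at 42 DAF, and 0.800 and 0.220 CPM at 49 DAF. SBE held 16.9, 19.1 and 19.2 CPM in the seed coat at 42 DAF and 11.9, 15.1 and 21.9 CPM in the embryo. Its log2 fold change of -1.03 (SE 0.18, edgeR, Benjamini-Hochberg adjusted p = 8.27e-07) became 0.17 on library totals, with the direction turned, and at this age the log2 fold change of the median gene differed by 1.21 between the scales. It also fell under the fold threshold in DESeq2 (-0.99), without replicate 3 (-0.88) and in the fit of the compared tissues (-0.97).

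Ratios of 2 transcripts within a library do not depend on the scaling, and GBSS and AgpS1 parted in both embryo and endosperm. The log2 ratio of GBSS over AgpS1 counts in the embryo was 0.70 ± 0.07 at 35 DAF, 6.51 ± 0.70 at 49 DAF and 3.38 ± 0.59 at R14 (mean ± SD, n = 3). In the endosperm it went from -1.48 ± 0.44 at 35 DAF to 4.62 ± 0.35 at 49 DAF, 7.30 ± 0.48 at B and 5.92 ± 0.23 at R14. The endosperm ratio at B was 439 times that at 35 DAF, with no overlap between the libraries. In whole seeds and the seed coat it stayed between -0.98 and 0.44 at every age.

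The log2 ratio of AgpL1 over AgpL2 fell in whole seeds from 0.71 ± 0.11 at 15 DAF to -2.09 ± 0.06 at 28 DAF. In the embryo it fell from -1.10 ± 0.12 at 35 DAF to -6.48 ± 0.08 at MG. In the endosperm it fell from -0.25 ± 0.86 to -5.00 ± 0.10 between the same stages, without overlap in either tissue. GBSS over SBE separated the filial tissues at first, at 1.36 ± 0.16 in the embryo and -1.55 ± 0.47 in the endosperm at 35 DAF, and the embryo also lay above the endosperm without overlap at 42 DAF, 49 DAF, MG and O. The libraries overlapped at B, PO and DO. From R on they lay apart with the embryo lower, at 1.21 to 1.71 against 1.73 to 1.96 at R14. The plot of ratios shows the large SDs of the late embryo in every ratio that holds AgpL1 or AgpS1.

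**Figure D4:**
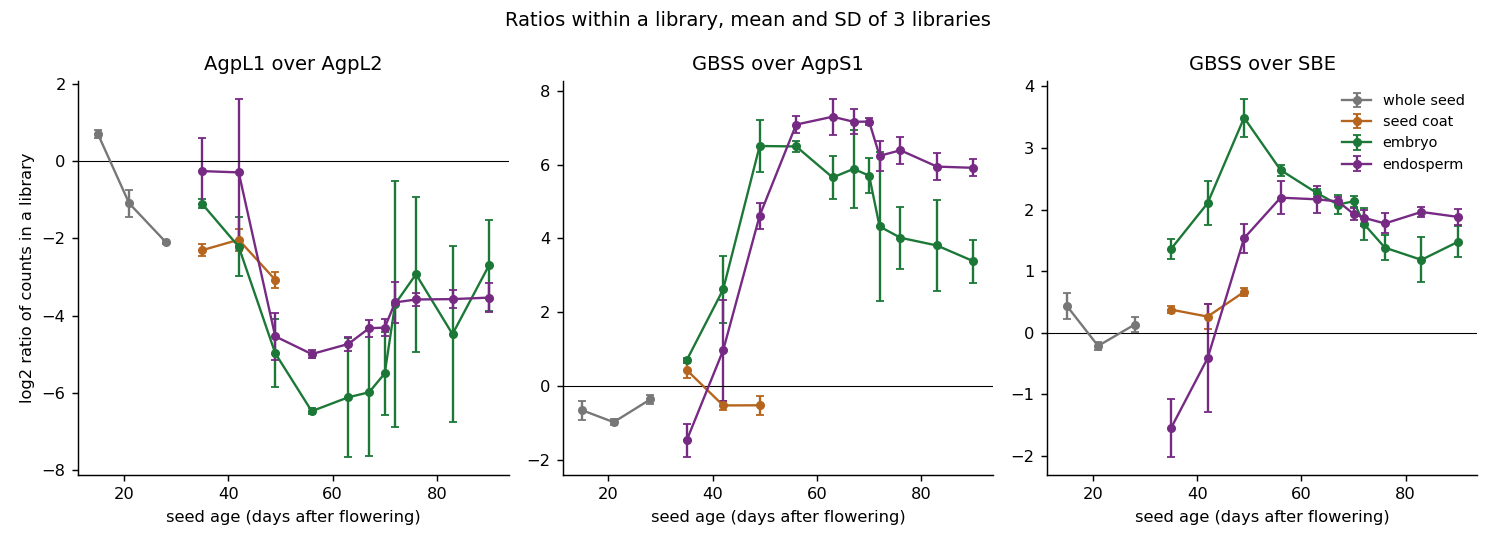
Log2 ratio of the counts of 2 starch genes within a library against seed age in days after flowering, as mean and SD of 3 libraries per tissue: AgpL1 over AgpL2, GBSS over AgpS1 and GBSS over SBE. GBSS over AgpS1 in the endosperm goes from -1.48 at 35 DAF to 7.30 at B, and AgpL1 over AgpL2 is lowest at MG in both embryo and endosperm.

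Over the 28 group means on the log2(CPM + 1) scale, AgpL1 and AgpS1 had the most similar profiles within the set (Pearson r = 0.856), followed by AgpL2 with SBE (0.755) and AgpL3 with AgpS1 (0.751). GBSS went with SBE (0.668) and not with AgpS1 (-0.275) or AgpL1 (-0.293). The groups share tissues and neighbouring ages, so these values are descriptions. AgpL3, whose highest group mean was 9.40 CPM, was not among the 16595 genes with at least 10 CPM in 1 group. None of the other members was among the 3 of these genes most like another member. Those closest were Solyc01g097300.4.1, Solyc02g071160.4.1 and Solyc09g090940.3.1 for AgpL1 (r = 0.912 to 0.928), Solyc03g112560.4.1, Solyc04g015970.3.1 and Solyc02g021020.4.1 for AgpL2 (r = 0.918 to 0.931) and Solyc06g016790.3.1, Solyc09g009707.1.1 and Solyc01g106920.4.1 for AgpL3 (r = 0.947 to 0.950). For the other members they were Solyc10g083190.3.1, Solyc11g040120.3.1 and Solyc12g049510.3.1 for AgpS1 (r = 0.972 to 0.976), Solyc09g082970.3.1, Solyc10g084770.3.1 and Solyc10g045490.2.1 for GBSS (r = 0.937 to 0.947) and Solyc02g070810.4.1, Solyc05g054400.3.1 and Solyc10g005920.4.1 for SBE (r = 0.936 to 0.942). Of these 18, the annotation that accompanies the study names Solyc06g016790.3.1 as a proline-rich receptor-like protein kinase, and the others are given by identifier alone.

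The same annotation, as held here, described 1818 genes, against 33976 gene models in the count table. Genes without a description could not be found by name, so other genes of starch metabolism may have been missed. A search of this annotation for a list of enzyme and initiation protein names found 1 gene besides the members, Solyc01g098960.3.1. This gene encodes a hexosyltransferase whose closest Arabidopsis match is named as a plant glycogenin-like starch initiation protein. It was scarce throughout, with 1.74 ± 0.343 CPM in whole seeds at 15 DAF, 1.90 ± 1.05 CPM in the seed coat and 1.98 ± 1.38 CPM in the endosperm at 35 DAF. It had no counts in any embryo library from 42 DAF on, which allows up to 3 counts per library. Like AgpL3, it was highest in the youngest samples of whole seed, seed coat and endosperm. The study placed both genes in 1 expression module of these samples, so the likeness is not independent of that choice.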

How the data were processed

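The 84 libraries were single-end RNA-seq of whole seed, seed coat, embryo and endosperm, grouped by tissue and stage from the sample labels. The authors quantified reads with Salmon 0.14.1 against the ITAG 4.0 gene models of the SL 4.0 tomato genome and deposited estimated counts per gene, of which 10.5% were not whole numbers. Nothing was normalized in the deposited values.

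Here the estimated counts were rounded, genes with low counts were removed with the default filter of edgeR, which left 24676 of 33976, and libraries were scaled by TMM. Quasi-likelihood tests (edgeR 4.0.16, R 4.3.3) used 1 coefficient per group over all 84 libraries, so that all groups shared 1 estimate of the spread, with Benjamini-Hochberg adjustment over all genes in each comparison. A call needed an adjusted p under 0.05 and an absolute log2 fold change above 1. CPM values, shares and within-library ratios were computed with Python 3.11.15 from library totals, the log2 ratios with 0.5 added to each count. Ratios of summed counts used library totals without TMM factors. Their exact intervals were at the 95% level and cover counting error only.

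Alternatives were library totals without TMM, DESeq2 1.42.0, no filter on low counts, no threshold on the fold change, a fit of the compared tissues alone, a replicate block and leaving out each replicate number in all groups at once, by the number in the sample titles. The fits were tested on simulated data. Every member is named, with the 3 genes most like each one by Pearson r. The members, the lists and the comparisons were chosen with earlier results of these data known, and the steps between consecutive ages in whole seed and seed coat were added after seeing the data. The study describes the 3 libraries of a group as biological replicates. The study grew its plants in more than a single year. The year of growth of each library is not given in the sources used here, so an effect of year was not tested. No 2 libraries held identical values. Sequences, coordinates and transcript lengths of the members are not used here, so no level was compared between genes per length.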

Additional observations from a re-analysis of the deposited data

Results flagged for a closer look

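The change of GBSS with age differed between embryo and endosperm when the difference itself was tested. The interaction on the log2 scale, embryo minus endosperm, was -1.75 (SE 0.34, edgeR, Benjamini-Hochberg adjusted p = 2.28e-05) from 35 to 49 DAF and -2.32 (SE 0.33, edgeR, Benjamini-Hochberg adjusted p = 1.93e-07) from 49 DAF to R14. Both interactions were called under each of the 8 alternatives run. The change within each tissue depended on the scaling: on library totals the embryo change from 49 DAF to R14 was called at 1.46, and the endosperm rise from 35 to 49 DAF was under the fold threshold at 0.69.

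For AgpL3 the interaction from 49 DAF to R14 was 2.63 (SE 0.71, edgeR, Benjamini-Hochberg adjusted p = 0.00350). The embryo libraries held 38, 19 and 12 counts at R14, and the call was lost without replicate 1, at 1.64.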

How the results depend on the processing

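Of the 73 single calls of a starch gene in 49 comparisons, each recomputed under 8 alternatives, 527 of 584 values kept direction and side of the threshold, 56 kept the direction but lost the call and 1 turned: SBE in seed coat against embryo at 42 DAF was 0.17 on library totals. Leaving out replicate 2 removed the most calls, 21 of 73. The causes were not tested. Without TMM factors the starch gene calls became 2 in the seed coat from 35 to 49 DAF (1 before), 11 in the consecutive embryo stages (7 before) and 4 in the endosperm from 49 DAF to R14 (2 before). The fit of the compared tissues only gave 2, 4 and 4 in the same comparisons. In whole seed from 15 to 28 DAF the count of 2 became 1 with DESeq2 and 1 without the filter on low counts. Without a threshold on the fold change the calls were 4 in whole seed, 2 in the seed coat, 11 in the embryo stages, 26 between embryo and endosperm (15 before) and 3 in the interaction from 35 to 49 DAF (1 before). With 1 replicate number left out, the counts ran from 1 to 1 in whole seed from 15 to 28 DAF, 3 to 12 in the embryo stages, 1 to 3 in the steps of whole seed and seed coat, 7 to 18 between embryo and endosperm, 5 to 9 between seed coat and endosperm, and 1 to 2 in the interaction from 49 DAF to R14.

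With a replicate block, 14 rather than 15 calls were made between embryo and endosperm. The block ended 2 of the 73 single calls, AgpS1 in embryo against endosperm at R7 (1.13) and SBE in seed coat against embryo at 42 DAF (-0.94). Embryo and endosperm samples of the same number correlated over 0.1 in 26 of 33 pairs (r from -0.27 to 0.55), and 25 of 33 correlated best with their own number, a hint from the data that many of them belong together. The labels name no shared plant, batch or day and 7 pairs did not reach 0.1, so the fit without the block was kept. The numbers are those of the sample titles, and 19 libraries in 9 groups carry another number in their description. Embryo and endosperm differ in this at PO, and by the description numbers 28 of 32 pairs correlated over 0.1 and 27 of 32 matched best, a check added after seeing the data. A block by these numbers was not run. Leaving out a replicate number therefore need not remove samples of 1 origin. AgpL3, with 1 to 15 counts per embryo library at 35 to 49 DAF, is the member that depth limits most. The large subunit share per transcript length was not run.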
